A study of Mus musculus with 8 samples.

Results

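The genes described here are 10 markers and regulators of the mammary epithelial lineages, out of 54532 genes counted in each library of 4T1 mouse breast cancer cells. They were chosen by name, not by their values, and comprise the keratins Krt5, Krt7, Krt8, Krt14, Krt17, Krt18 and Krt19 and the transcription factors Trp63, Gata3 and Elf5. 4T1 is a triple-negative line that came from a spontaneous mammary tumor of a BALB/c mouse. One 4T1 line carried a stable shRNA against MCT-1, a translation re-initiation factor encoded by Mcts1 (shMCT-1), and the other a negative-control shRNA (scramble), and both were kept under puromycin at 6 µg/ml. Each line received either control IgG or an antibody that blocks the mouse IL-6 receptor (anti-IL-6R, 100 ng/ml) for 48 h, which gave 4 groups of 2 biological replicates, 8 poly(A) RNA libraries in all. Whether each line was a clone or a pool is not given in the sources used here. Each arm was a single line, so that an effect of shMCT-1 and a difference between lines cannot be told apart.

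Keratins are intermediate filament proteins that assemble only as pairs of a type I chain (Krt14, Krt17, Krt18, Krt19) with a type II chain (Krt5, Krt7, Krt8). In the mammary gland, Krt8 and Krt18, often with Krt7 and Krt19, mark the inner luminal cells that line ducts and make milk, while Krt5, Krt14 and Krt17 mark the outer basal or myoepithelial layer. Trp63, which encodes p63, maintains basal cells, Gata3 maintains luminal cells, and Elf5 drives the alveolar, milk-producing branch of the luminal lineage.

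The keratin genes lie in 2 clusters. On the GRCm38 build, the type I genes Krt19 (chr11:100140810-100148665), Krt14 (chr11:100203162-100207548) and Krt17 (chr11:100256217-100261029) lie on the minus strand of chromosome 11, with 54.5 kb between Krt19 and Krt14 and 48.7 kb between Krt14 and Krt17. The type II genes Krt7 (chr15:101411043-101430313, plus strand), Krt5 (chr15:101707070-101712898, minus strand) and Krt8 (chr15:101996698-102004482, minus strand) lie on chromosome 15. Krt18 (chr15:102028180-102032027, plus strand) is the type I gene that sits in the type II cluster, 23.7 kb from its partner Krt8. Gata3 (chr2:9857078-9890034, minus strand) and Elf5 (chr2:103411688-103450989, plus strand) are on chromosome 2, and Trp63 (chr16:25683763-25892102, plus strand) is on chromosome 16.

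Sequences before RefSeq start sites are shown for the partners Krt8 and Krt18, which moved together, and for Krt5, which was not detected, and Gata3, which stayed level. RefSeq (GRCm38.p6) gave 8 start sites for 7 of the 10 genes, and the 250 bases before each were searched on both strands for the TATA box TATAAA, the Sp1-type box GGGCGG, the AP-1 motif TGANTCA and the GATA-type motif AGATAA. No base of 1 motif overlapped another motif in these windows. Capitals mark the matches, and bases that GENCODE places in an exon of the gene are left out. The Krt8 stretch is chr15:102004483-102004592 (minus strand), that of Krt18 is chr15:102027966-102028179 (plus strand), that of Krt5 is chr15:101712906-101713155 (minus strand) and that of Gata3 is chr2:9878601-9878850 (minus strand), which lies inside the gene as GENCODE gives it, in an intron of longer transcripts.
Krt8: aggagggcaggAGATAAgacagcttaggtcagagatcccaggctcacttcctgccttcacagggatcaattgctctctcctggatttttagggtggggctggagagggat
Krt18: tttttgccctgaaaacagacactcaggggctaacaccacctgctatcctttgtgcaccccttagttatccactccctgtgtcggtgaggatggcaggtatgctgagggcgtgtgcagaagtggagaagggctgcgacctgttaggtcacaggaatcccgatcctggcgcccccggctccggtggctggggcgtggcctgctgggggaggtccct
Krt5: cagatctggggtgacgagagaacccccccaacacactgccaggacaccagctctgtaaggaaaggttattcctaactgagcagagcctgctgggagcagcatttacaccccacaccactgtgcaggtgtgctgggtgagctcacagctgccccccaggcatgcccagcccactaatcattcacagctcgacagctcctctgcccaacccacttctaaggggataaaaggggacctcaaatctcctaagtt
Gata3: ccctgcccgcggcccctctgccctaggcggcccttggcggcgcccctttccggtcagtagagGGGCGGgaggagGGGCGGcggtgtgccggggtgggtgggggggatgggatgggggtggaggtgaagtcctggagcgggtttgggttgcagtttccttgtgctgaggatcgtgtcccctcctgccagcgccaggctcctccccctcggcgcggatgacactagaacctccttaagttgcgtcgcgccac

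The Krt8 window held 1 AGATAA, which begins 239 bases before the start, and 9.99% of 32851 mouse promoters held this motif. Neither the Krt18 nor the Krt5 window held any of the 4 motifs. Gata3 held GGGCGG 2 times and Krt7, the keratin with the largest called fold change among the abundant ones that rose, held it 4 times, against 32.7% of all promoters with at least 1. The Krt7 window reaches into exon bases of the gene and is not printed.

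CpG content also differed within the family. The ratio of observed to expected CpG was 0.143 in the Krt8 window and 0.105 in that of Krt5, but 0.527 for Krt18, 0.596 for Krt7 and 0.633 for Gata3, with a median of 0.374 over all promoters. TATAAA (12.4% of promoters) and TGANTCA (6.75%) were found in none of the 8 windows. These are letters in a short window and say nothing of what binds there.

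The libraries held 24100084 to 33063570 counts in scramble and 19839299 to 23448587 in shMCT-1. Levels are given as CPM, counts scaled to a common library total, and 1 CPM rested on 19.8 to 33.1 counts. Mcts1, the targeted gene, lay between 11.8 and 15.4 CPM in scramble and between 4.92 and 6.70 CPM in shMCT-1, without overlap. The mitochondrial share of counts was 1.97 to 2.52% in scramble and 0.840 to 1.53% in shMCT-1, and its part in the results below was not tested. The epithelial label of 4T1 was met by Cdh1 (245 to 315 CPM) and Epcam in all 8 libraries, although Epcam stood at 3.75 to 4.93 CPM in scramble and 49.4 to 54.5 CPM in shMCT-1. Of the receptors that triple-negative cells lack, Pgr had 0 counts in every library and Esr1 stood at 2.62 to 4.62 CPM, whereas Erbb2 transcripts were present at 54.8 to 71.0 CPM.

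The 10 genes fell into an abundant and a nearly silent set. Krt8, Krt18, Krt7, Krt14 and Gata3 exceeded 1 CPM in every library. Krt5, Trp63 and Elf5 were below 1 CPM in all 8 libraries. Krt17 was below 1 CPM in all 4 scramble libraries and in replicate 1 of shMCT-1 + anti-IL-6R, and Krt19 was below 1 CPM in all 4 shMCT-1 libraries. Therefore 7 of the 10 exceeded 1 CPM in 2 or more libraries and could be tested. Krt17 passed only through shMCT-1 and Krt19 only through scramble, so that each entered the test through the line in which it was high.

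**Figure D1:**
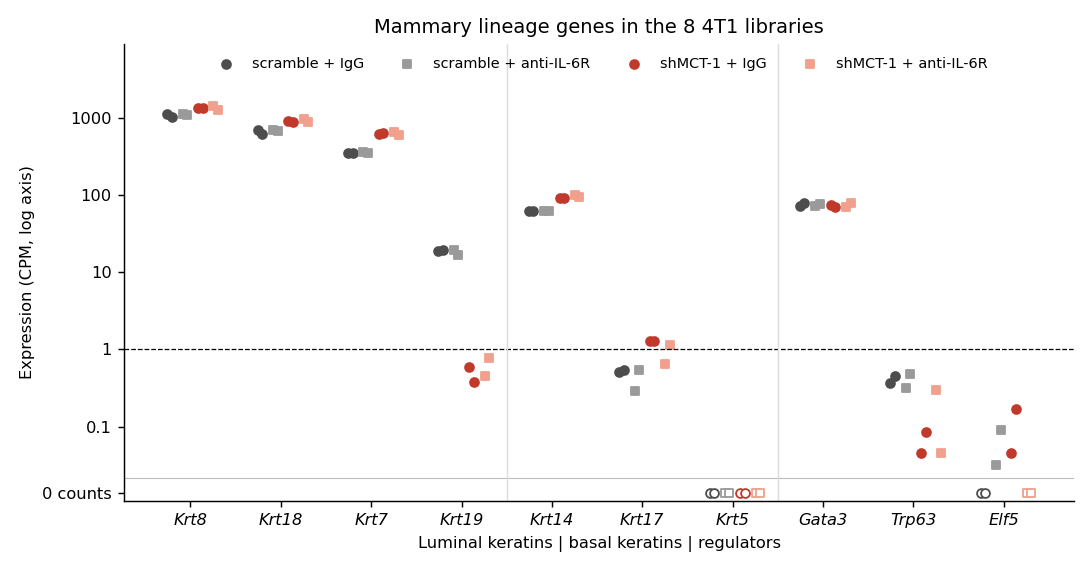
Expression of the 10 genes in CPM on a log axis, with 1 point per library, coloured by group. The dashed line is 1 CPM and open symbols on the lowest level are libraries with 0 counts. Krt19 fell from 16.5 to 19.5 CPM in scramble to 0.384 to 0.774 CPM in shMCT-1, whereas Krt8, Krt18, Krt7 and Krt14 lay higher in shMCT-1 and Gata3 overlapped.

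In shMCT-1 vs. scramble, the luminal keratins did not move as a group. Krt8, Krt18 and Krt7 rose, by factors of 1.23, 1.36 and 1.76 in mean CPM over 4 libraries against 4, while Krt19 dropped from a mean of 18.4 ± 1.32 CPM to 0.552 ± 0.172 CPM (SD, n = 4). The basal keratin Krt14 rose 1.51-fold and Gata3 did not change detectably. Within IgG, edgeR called 6 of the 7 tested genes at an adjusted p under 0.05, 5 higher and 1 lower in shMCT-1, but 54.4% of all 12704 tested genes were called in the same comparison (28.3% higher and 26.2% lower). The same 6 genes were called with the same signs within anti-IL-6R, where the background was 54.3% (26.9% higher and 27.3% lower). A share of this kind over so few genes, with Krt17 and Krt19 each passing the filter through a single line, does not set the list apart. These are bulk libraries, in which fewer cells of a kind and less RNA per cell cannot be told apart.

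Krt19 encodes the smallest type I keratin, a luminal chain that lacks most of the tail domain. It stood at 18.6 and 19.2 CPM in scramble + IgG and at 19.5 and 16.5 CPM in scramble + anti-IL-6R. It stood at 0.595 and 0.384 CPM in shMCT-1 + IgG and at 0.454 and 0.774 CPM in shMCT-1 + anti-IL-6R. Every shMCT-1 library lay far below every scramble library, and replicates of a group differed little on that scale. In counts, 2129 Krt19 fragments in scramble faced 48 in shMCT-1, a CPM ratio of 33.3 over the pooled libraries (95% exact interval for counting error alone 25.0 to 45.3). The log2 fold change in edgeR was -5.22 (SE 0.23, adjusted p = 5.21e-07) within IgG and -4.79 (SE 0.23, adjusted p = 6.15e-07) within anti-IL-6R. Ordered from the lowest, these were the 28th and 36th of 12704 log2 fold changes, positions that place Krt19 at the 0.22 percentile within IgG. Because Krt19 passed the filter only through scramble, where it was high, these positions are a description and not a test.

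Krt8 and Krt18 form the obligate pair of simple epithelia. Krt8 had 1110.3 and 1031 CPM in scramble + IgG and 1116 and 1084 CPM in scramble + anti-IL-6R, against 1335 and 1328 CPM in shMCT-1 + IgG and 1429 and 1257 CPM in shMCT-1 + anti-IL-6R. Krt18 had 686 and 622 CPM in scramble + IgG and 695 and 667 CPM in scramble + anti-IL-6R, against 915 and 888 CPM in shMCT-1 + IgG and 959 and 873 CPM in shMCT-1 + anti-IL-6R. All 4 shMCT-1 libraries lay above all 4 scramble libraries for both partners. Within IgG, the log2 fold change was 0.36 for Krt8 (SE 0.09, edgeR adjusted p = 0.00814) and 0.51 for Krt18 (SE 0.09, edgeR adjusted p = 0.00111). Within anti-IL-6R, it was 0.34 for Krt8 (edgeR adjusted p = 0.00991) and 0.48 for Krt18 (edgeR adjusted p = 0.00145). The Krt8 call within anti-IL-6R was lost when any 1 of 3 libraries was left out, with edgeR adjusted p = 0.0545 without scramble + anti-IL-6R replicate 1, 0.0928 without its replicate 2 and 0.0656 without shMCT-1 + anti-IL-6R replicate 1.

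Krt7, a type II keratin of ducts and other simple glandular epithelia, had the largest rise among the abundant keratins. It stood at 350.4 and 353 CPM in scramble + IgG and at 365 and 346 CPM in scramble + anti-IL-6R. The shMCT-1 libraries reached 620.0 and 629 CPM with IgG and 649 and 589.9 CPM with anti-IL-6R. The groups of 4 did not overlap, and the lowest shMCT-1 library exceeded the highest scramble library by more than 200 CPM. The log2 fold change was 0.87 (SE 0.09, edgeR adjusted p = 4.83e-05) within IgG and 0.86 (SE 0.09, edgeR adjusted p = 5.04e-05) within anti-IL-6R.

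Among the basal keratins, Krt14 was the only one at an appreciable level. Its scramble libraries were nearly identical, at 62.1 and 61.3 CPM with IgG and 61.6 and 62.4 CPM with anti-IL-6R. Its shMCT-1 libraries stood at 90.5 and 90.3 CPM with IgG and 98.8 and 93.1 CPM with anti-IL-6R. The groups did not overlap, with log2 fold changes of 0.59 (SE 0.08, edgeR adjusted p = 0.000269) within IgG and 0.69 (SE 0.08, edgeR adjusted p = 0.000116) within anti-IL-6R. Krt17, a keratin of basal cells, hair follicles and wounded skin, was near the limit of the depth. Its counts were 14, 13, 9 and 18 in scramble and 28, 30, 13 and 25 in shMCT-1, which is 0.288 to 0.544 CPM and 0.655 to 1.28 CPM. The Krt17 log2 fold change was 1.33 (SE 0.42, edgeR adjusted p = 0.0224) within IgG and 1.16 (SE 0.44, edgeR adjusted p = 0.0480) within anti-IL-6R, and both calls were fragile. Within IgG, the call was lost without any 1 of the 4 libraries compared (edgeR adjusted p = 0.0684 to 0.0859) and in DESeq2 (adjusted p = 0.0702). Within anti-IL-6R, the Krt17 call held in 3 of 15 alternatives. Its log2 fold change was 0.72 without shMCT-1 + anti-IL-6R replicate 2, 0.78 without scramble + anti-IL-6R replicate 1 and 1.68 without scramble + anti-IL-6R replicate 2, and the adjusted p ranged from 0.0261 to 0.284 over edgeR and DESeq2 fits. Krt5, the usual type II partner of Krt14, had 0 counts in all 8 libraries, which allows at most 0.0907 to 0.151 CPM per library (3 counts, counting error only).

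The 3 regulators gave 3 different pictures. Gata3 had 71.3 and 77.7 CPM in scramble + IgG and 72.3 and 75.4 CPM in scramble + anti-IL-6R. The shMCT-1 libraries had 74.6 and 70.3 CPM with IgG and 69.96 and 77.9 CPM with anti-IL-6R. The groups overlapped throughout, and over all 8 libraries the coefficient of variation was 4.29%, the smallest of the 9 genes detected. The Gata3 log2 fold change was 0.00 within IgG (95% interval -0.21 to 0.21, edgeR adjusted p = 0.993) and 0.06 within anti-IL-6R (95% interval -0.15 to 0.27, edgeR adjusted p = 0.618). Its sign within IgG changed with the scaling, to -0.02 with RLE size factors.

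Trp63 was rare in every library. Its counts were 10, 11, 10 and 16 in scramble and 1, 2, 6 and 1 in shMCT-1, which is 0.320 to 0.484 CPM and 0.0455 to 0.302 CPM. The groups did not overlap, although the 6 counts of shMCT-1 + anti-IL-6R replicate 1 came close to scramble. The pooled CPM ratio of scramble to shMCT-1 was 3.53, with a 95% exact interval for counting error of 1.76 to 7.84. Elf5 had 4 counts over all scramble libraries and 5 over all shMCT-1 libraries, and no library exceeded 0.171 CPM, so a difference was not detectable at this depth.

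With no filter or with filterByExpr, edgeR could test Trp63, with log2 fold changes of -2.49 (adjusted p = 0.0292) and -2.48 (adjusted p = 0.0375) within IgG and -1.15 in both within anti-IL-6R (adjusted p = 0.338 and 0.213). Because Trp63 did not pass the filter of the edgeR fit used here, 8 genes were also compared on the log2 CPM scale by a 2-sided exact permutation test of 4 shMCT-1 against 4 scramble libraries. The smallest p this design allows is 0.0286. Krt7, Krt8, Krt14, Krt17, Krt18, Krt19 and Trp63 all reached it, with no adjustment for the 8 tests. The mean log2 CPM of shMCT-1 minus scramble was -2.22 for Trp63 and -5.11 for Krt19, against 0.30 for Krt8 and 0.81 for Krt7. Gata3 gave an exact permutation p of 0.657 and a difference of -0.02. Groups of 4 without overlap, the pattern behind the smallest p, were found for 64.1% of the 12704 tested genes (29.9% with all shMCT-1 libraries higher and 34.2% with all lower).

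**Figure D2:**
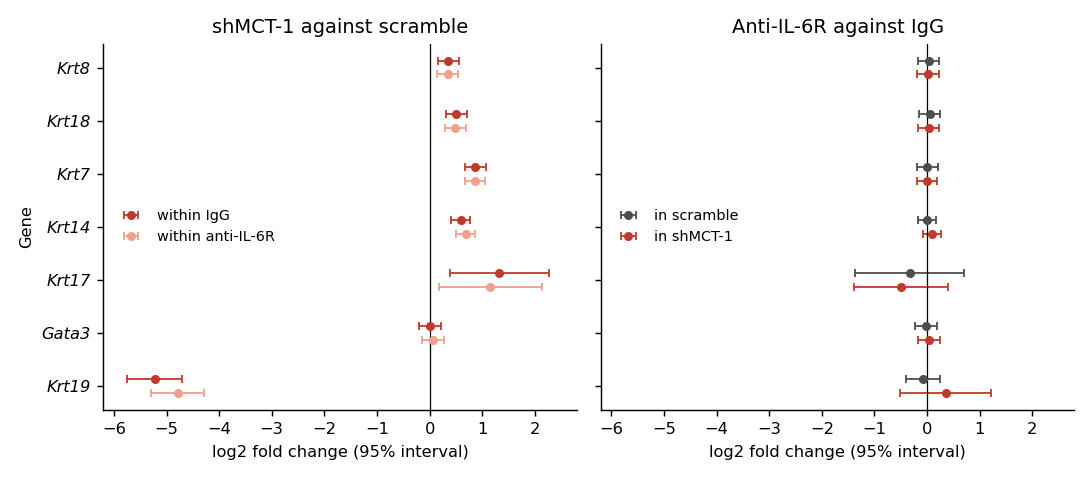
log2 fold changes of the 7 tested genes from edgeR with 95% intervals, with the knockdown comparisons on the left and the antibody comparisons on the right. On the left, Krt19 lies near -5, the other keratins lie above 0 and Gata3 lies at 0. On the right, all intervals include 0, and those of Krt17 and Krt19 in shMCT-1 are wide because few counts stand behind them.

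Anti-IL-6R left no detectable mark on these genes in either line. No gene of the 7 was called by edgeR after the antibody in either line, and edgeR called 0 of all 12704 genes in each comparison (0% background). At an unadjusted p under 0.05, edgeR found 166 genes (1.31%) in scramble and 505 (3.98%) in shMCT-1, none of them among the 7. Both shares are smaller than this threshold would give if no gene differed, and the reason was not tested. Upon anti-IL-6R in scramble, the log2 fold change ran from -0.33 for Krt17 to 0.05 for Krt18. In shMCT-1 it ran from -0.50 for Krt17 (95% interval -1.39 to 0.40) to 0.35 for Krt19 (95% interval -0.51 to 1.22). For the abundant genes the intervals were narrow. That of Krt8 was -0.17 to 0.23 in scramble and -0.18 to 0.22 in shMCT-1, and that of Krt7 was -0.18 to 0.20 and -0.20 to 0.19. That of Krt14 was -0.18 to 0.18 in scramble and -0.09 to 0.27 in shMCT-1, and both replicates of shMCT-1 + anti-IL-6R stood above both of shMCT-1 + IgG. Non-overlap of this kind was found for 29.1% of all tested genes in shMCT-1 and for 30.1% in scramble. The interaction of line and treatment called 0 of 12704 genes (315 at an unadjusted p under 0.05, 2.48%, again smaller than with no difference). For Krt19 its estimate was 0.43 (95% interval -0.49 to 1.36, edgeR adjusted p = 1.00).

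Levels can be compared between genes only after division by transcript length. In CPM per kb of exon, Krt8 led in scramble with a level of 554 ± 19.7, followed by Krt18 with 464 ± 22.7, Krt7 with 50.2 ± 1.13, Krt14 with 35.2 ± 0.284, Gata3 with 18.6 ± 0.733 and Krt19 with 9.94 ± 0.712 (SD, n = 4). Krt17 (0.303 ± 0.0789), Trp63 (0.0484 ± 0.00919) and Elf5 (0.00522 ± 0.00728) were far lower on the same scale. In scramble, no neighbours in this order overlapped between libraries. In shMCT-1, Krt8 (683 ± 36.1) and Krt18 (632 ± 26.3) overlapped between libraries in their length-scaled levels, as did Trp63 and Elf5. Krt19, with a length-scaled level of 0.297 ± 0.0929, then stood below Krt17, with 0.702 ± 0.191, so that these type I genes changed places in the mean. Both levels rest on few counts. With the longest transcript as length, the shMCT-1 libraries overlapped, with Krt19 up to 0.491 and Krt17 down to 0.422. The level of Krt7 depends on the length used, since its exons together span 7049 bases and its longest transcript only 4094, which puts it at 86.4 in scramble and 152 in shMCT-1.

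The make-up of the keratin pool followed from these changes. The CPM of the 7 keratins summed to 2087 to 2257 in scramble and to 2814 to 3136 in shMCT-1. On the length-scaled scale, Krt8 and Krt18 made up 90.9 to 91.6% of the 7 keratins in scramble and 90.1 to 90.4% in shMCT-1. Krt7 took 4.36 to 4.75% and then 5.95 to 6.20%, or 7.26 to 7.88% and then 9.81 to 10.2% with the longest transcript as length. The basal share, almost all of it Krt14, was 3.06 to 3.34% in scramble and 3.59 to 3.87% in shMCT-1. Krt19 took 0.802 to 0.982% and then 0.0144 to 0.0301%, or 0.912 to 1.11% and then 0.0162 to 0.0339% with the longest transcript as length.

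Type II and type I chains are found in equal amounts in filaments, and their transcripts were close to balance. The length-scaled ratio of type II to type I transcripts was 1.17 to 1.21 in scramble and 1.10 to 1.15 in shMCT-1. Between the obligate partners alone, Krt8 per Krt18 was 1.18 to 1.22 in scramble and 1.06 to 1.10 in shMCT-1, because Krt18 rose by more than Krt8 in mean CPM. Krt7 per Krt8 was 0.0877 to 0.0951 in scramble and 0.126 to 0.132 in shMCT-1 (0.151 to 0.164 and 0.217 to 0.226 with the longest transcript), and Krt14 per Krt18 was 0.0724 to 0.0806 and 0.0808 to 0.0872. With the longest transcript as length, type II per type I was 1.238 to 1.273 in scramble and 1.185 to 1.237 in shMCT-1. None of these ranges overlapped between scramble and shMCT-1, but those of Krt14 per Krt18 and of this last ratio nearly met. No test was made of the ratios.

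**Figure D3:**
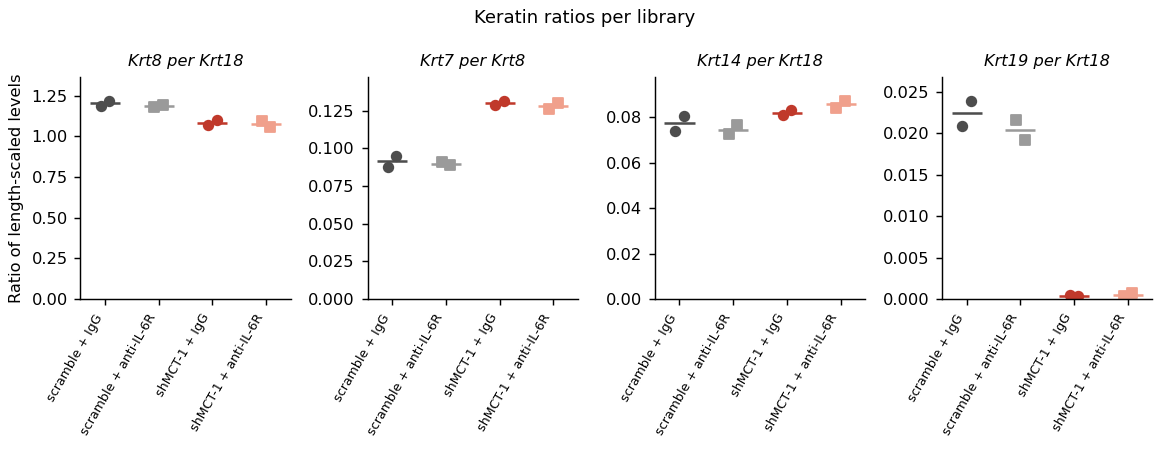
Ratios of length-scaled levels between keratins, with 1 point per library and a bar at the mean of each group of 2, on axes that start at 0. Krt8 per Krt18 lay at 1.18 to 1.22 in scramble and 1.06 to 1.10 in shMCT-1, Krt7 per Krt8 and Krt14 per Krt18 were higher in shMCT-1, and Krt19 per Krt18 went from 0.0192 to 0.0239 down to 0.000335 to 0.000687.

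Sequence shared with other genes limits some of these counts. In a BLAST search of GENCODE transcripts, 16.9% of the 100-base windows of the Krt8 transcript were found unchanged in Krt8-ps, a processed pseudogene on chromosome 7, which itself stood at 5.22 to 6.05 CPM in all libraries. The share was 2.88% for Krt14 (with Krt16), 2.38% for Krt5 (with Krt6a and Gm5478) and 0% for Krt7, Krt17, Krt18, Krt19, Trp63, Gata3 and Elf5. Krt17 was still 89.1% identical to Krt14 over 957 aligned bases, and whether Krt14 fragments entered its low counts was not tested. Krt18 was 90.2% identical to Gm5200 over 1269 aligned bases, and Krt14 was 87.0% identical to Krt16 over 1285. Whether fragments of Gm5200 or Krt16 entered the counts of Krt18 or Krt14 was not tested either. The strand setting of the counting is not given in the sources used here, and the exons of Krt7, Krt8 and Gata3 overlap those of antisense or neighbouring genes by 77 to 155 bases. The overlapping genes had at most 6 counts at Krt7, 48 at Krt8 and 43 at Gata3.

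Most neighbours of Krt19 did not fall with it. Within 500 kb of Krt19, 14 other genes were tested, of which 6 rose and 2 fell within IgG, with a median log2 fold change of 0.36. Over all 1001 tested genes of chromosome 11, 52.4% were called and the median log2 fold change was 0.15, and over all 12704 genes 54.4% were called and it was 0.01. Among the risers, Cnp had a log2 fold change of 2.00 (edgeR adjusted p = 1.44e-05). Eif1, a translation initiation factor gene, rose by a log2 fold change of 0.71 (edgeR adjusted p = 0.00252), and Jup, which encodes the desmosomal linker plakoglobin, by 0.36 (edgeR adjusted p = 0.0116). The 2 neighbours that fell were Klhl11, with a log2 fold change of -1.34 (edgeR adjusted p = 0.000685), and P3h4, which had 243 counts over the scramble libraries and 2 over the shMCT-1 libraries. The pooled CPM ratio of P3h4 was 91.3, with a 95% exact interval for counting error of 25.0 to 758. Around Gata3, the 1001 tested genes of chromosome 2 had a median log2 fold change of -0.36 within IgG, and 61.7% of them were called. Of 6 tested neighbours of Gata3, 4 fell and none rose. Taf3, a general transcription factor subunit gene, was among those that fell (log2 fold change -0.68, edgeR adjusted p = 0.000819). So was 4930412O13Rik, which lies inside Gata3 on the other strand and went from a mean of 1.78 CPM to 0.284 CPM. P3h4 and 4930412O13Rik passed the filter only through scramble.

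**Figure D4:**
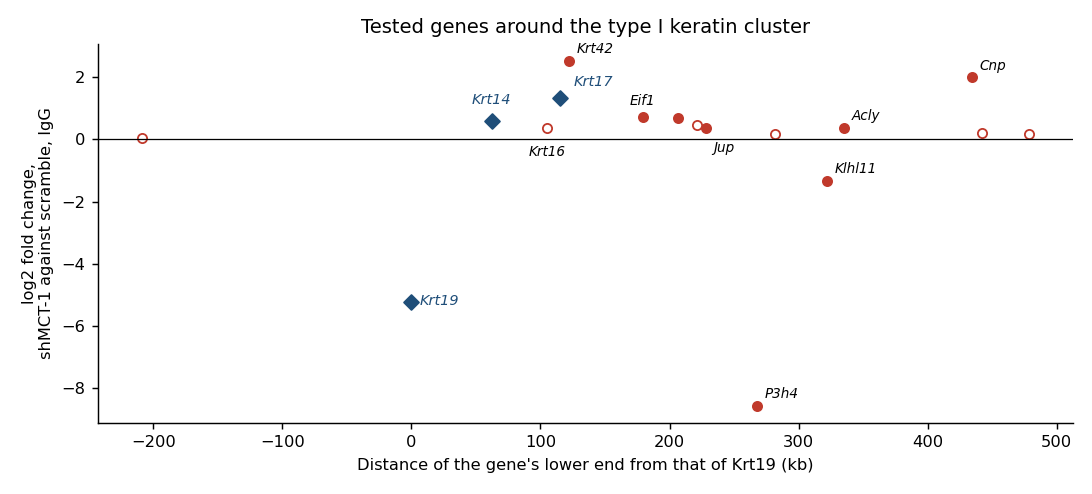
Knockdown effect within IgG, as log2 fold change, for tested genes within 500 kb of Krt19, against the distance in kb between the lower ends of the genes. Filled circles passed an edgeR adjusted p of 0.05, open circles did not, and diamonds are Krt19, Krt14 and Krt17. Krt19 at -5.22 and P3h4 lie far below 0, Klhl11 lies at -1.34 and most other genes lie between 0 and 1.

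Other keratin genes were mostly silent. Of 47 further Krt genes, 42 were below 1 CPM in every library and 22 of these had 0 counts throughout. Among the 5 that were tested, Krt10, a keratin of differentiating epidermis, rose from a mean of 1.34 to 3.30 CPM (log2 fold change 1.38 within IgG, edgeR adjusted p = 0.00333). Krt42 rose from 0.129 to 0.925 CPM (log2 fold change 2.52 within IgG, edgeR adjusted p = 0.00453), but it passed the filter only through shMCT-1. Krt16, a stress-inducible type I chain, had 7.57 and 9.88 CPM and was called only within anti-IL-6R (log2 fold change 0.51, edgeR adjusted p = 0.0150), where a test of the difference between treatments called no gene. Krt80 (75.2 and 71.6 CPM) and Krt87 (0.990 and 1.07 CPM) were called in neither comparison.

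The genes that tie keratin filaments to desmosomes and hemidesmosomes were mixed in direction. Of 17 such genes 14 were tested, and within IgG 6 fell, 3 rose and 5 were not called, against 26.2% lower and 28.3% higher over all tested genes. The median log2 fold change of the 14 was -0.31, against 0.01 over all. Dsp, which encodes desmoplakin, the main anchor of keratin at desmosomes, fell from a mean of 386 to 150 CPM (log2 fold change -1.37, edgeR adjusted p = 4.56e-05). The plakin Ppl fell from 69.0 to 22.5 CPM (log2 fold change -1.57, edgeR adjusted p = 3.65e-05). Dst and Eppk1, which encode further plakins, fell with log2 fold changes of -1.18 and -1.29, whereas Jup and Pkp2, which sit between desmosomal cadherins and desmoplakin, rose with values of 0.36 and 0.25. Plec, the linker with the highest CPM, had 1210 CPM in scramble and 979.5 in shMCT-1. It was called only within anti-IL-6R, where 6 linker genes fell and 2 rose.

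Further lineage lists were mixed in direction. Of 20 other basal or myoepithelial genes only 6 were tested and 12 were below 1 CPM throughout. Jag1, a Notch ligand, rose from 54.0 to 97.9 CPM and Mylk, myosin light chain kinase, from 0.442 to 1.65 CPM, while the growth factor Nrg1 fell from 63.5 to 23.0 CPM. The intermediate filament gene Vim, a mesenchymal counterpart of the keratins that is also found in basal cells, rose from 1530 to 2172 CPM (log2 fold change 0.55 within IgG, edgeR adjusted p = 0.000977). Of 14 luminal progenitor genes 10 were tested, with 4 higher and 4 lower within IgG (28.3% and 26.2% over all tested genes). Ehf, an ETS factor of the same subfamily as Elf5, rose from 0.419 to 6.02 CPM and Elf3, another member of it, from 11.6 to 28.2 CPM. Lcn2, lipocalin, fell from 25.3 to 6.17 CPM. Mylk and Ehf passed the filter only through shMCT-1.

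Among 15 hormone-sensing luminal genes 5 were tested, 3 higher and 1 lower within IgG, against 28.3% and 26.2% of all tested genes. Prom2, a membrane glycoprotein gene, rose from 1.72 to 16.7 CPM and Areg, an EGFR ligand, fell from 149 to 84.2 CPM. Of 11 alveolar or milk genes 5 were tested. Mfge8, milk fat globule protein, rose from 109 to 217 CPM and Stat5a, a prolactin signal transducer, from 5.24 to 10.9 CPM, while Xdh, xanthine dehydrogenase, fell with a log2 fold change of -2.36. Of 18 other epithelial transcription factors 12 were tested, with 2 higher and 6 lower within IgG, beside the same 28.3% and 26.2%. Klf4 fell from 25.8 to 10.1 CPM and Klf5 from 203 to 138 CPM, whereas Grhl2 rose from 25.1 to 31.8 CPM. No gene of any list was called upon anti-IL-6R.

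**Figure D5:**
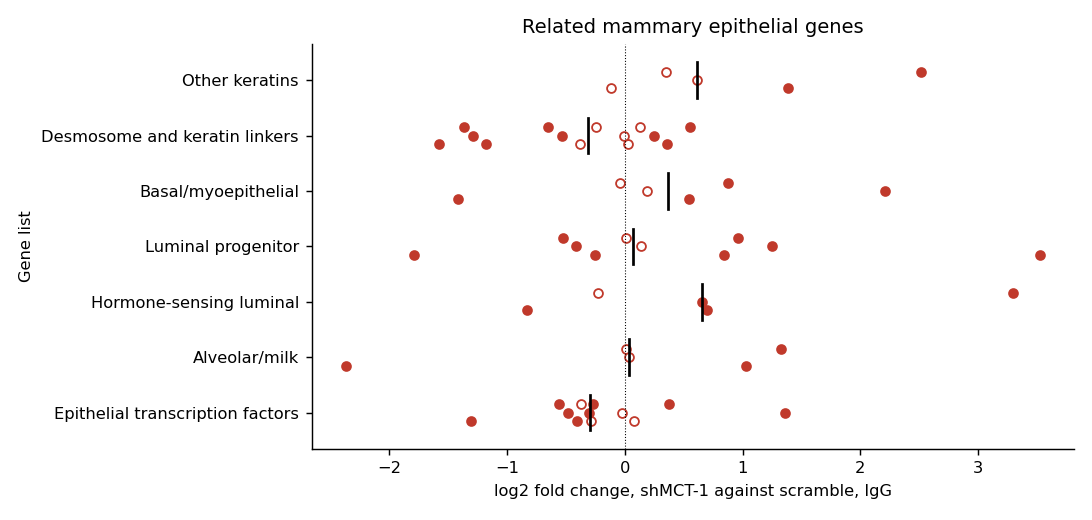
Knockdown effect within IgG, as log2 fold change, for the tested genes of 7 related lists, with 1 circle per gene, filled where the edgeR adjusted p was under 0.05, and a bar at the median. Linker genes and epithelial transcription factors have medians of -0.31 and -0.29, and all lists with more than 5 tested genes hold genes on both sides of 0.

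Markers of other cell types were low but not level between the lines. The 7 immune genes summed to 3.14 to 3.90 CPM in scramble and 6.10 to 7.91 CPM in shMCT-1, nearly all of it Cd68, while Adgre1 and Cd3e had 0 counts in every library. The 4 endothelial genes summed to 0.0960 to 0.332 CPM and 0.554 to 1.91 CPM, of which Cdh5 was called, and the 8 fibroblast genes to 15.3 to 17.3 CPM and 12.7 to 16.3 CPM, mostly Pdgfra, with Lum at 0 throughout. Col1a1, a fibrillar collagen gene and the 1 fibroblast gene called, rose from a mean of 0.421 to 1.31 CPM (log2 fold change 1.77 within IgG, edgeR adjusted p = 0.00628, and 1.58 within anti-IL-6R, edgeR adjusted p = 0.00744). Cdh5 and Col1a1 passed the filter only through shMCT-1. The part of these markers in the keratin results was not tested.

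Genes most like each keratin over the 8 libraries were sought outside the 10 genes, which were left out of the search. Over 8819 genes with a mean of at least 10 CPM, the highest Pearson correlations of log2 CPM were with Gipc1 for Krt7 (0.9989), Galk1 for Krt8 (0.9977), Wdr83os for Krt18 (0.999), Gusb for Krt14 (0.9987) and Flrt3 for Krt19 (0.9989). Such values were common, since 922 to 1420 genes exceeded 0.95 for each of these 5 keratins, and all of them share the step between the lines. For the scarce Krt17 the best match was Mkln1 (0.9646), and for Gata3, which has no such step, it was Cask (0.9555), with 6 and 2 genes over 0.95.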

How the data were processed

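Paired-end reads were trimmed by cutadapt 1.18 and mapped by STAR 2.7.0d on mm10 with GENCODE release M19, per the submitters' processing notes and the study's methods. RSEM then estimated gene totals, and the authors deposited these expected counts, which carry no correction for depth or length. Fractional estimates made up 29.6% of the non-zero values and were rounded here. The libraries carried unique molecular identifiers, but whether these were used for counting is not given in the sources used here. Sample titles gave each library's group and replicate number. Coordinates are from GENCODE M21 on GRCm38, in which 54409 of 54532 identifiers were found without their version.

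The 12704 genes that exceeded 1 CPM in 2 or more of the 8 libraries were fitted with edgeR 4.0.16 (R 4.3.3), with TMM, 4 group means and the quasi-likelihood test. p-values were adjusted by Benjamini-Hochberg over all tested genes, and a gene was called under 0.05. CPM values in the text are counts over the library total. Alternatives were RLE size factors, DESeq2 1.42.0, no filter, a filter in at least 7 libraries, filterByExpr, the replicate number as a block, a fit restricted to the 4 libraries of a comparison, the exact test of edgeR (which the study names), the longest transcript as length, and leaving out each library. The fit was tested on simulated counts. Exact permutation tests were run in R, exact intervals of the pooled count ratios used SciPy 1.17.1, and sequence similarity used BLAST 2.17.0.

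Genes named besides the 10 are Mcts1, the tested keratins, in each list up to 2 called risers and 2 called fallers with the largest changes in both knockdown comparisons, the first of the 2 genes most correlated with each of the 7 tested, and neighbours within 500 kb. Epcam, Cdh1, Esr1, Pgr and Erbb2 checked the cell line, and Cd68, Adgre1, Cd3e, Cdh5, Pdgfra, Lum and Col1a1 other cell types. Plec, Vim, Dst, Eppk1, Krt8-ps and the choice among neighbours and correlated genes were added after their values were seen. One marker is not reported here. The 10 genes and the lists were chosen with earlier results of these data known.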

Additional observations from a re-analysis of the deposited data

Results flagged for a closer look

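Elf5 moved in opposite directions upon anti-IL-6R in the 2 lines. Its mean went from 0 to 0.0614 CPM in scramble (0 and 0 counts with IgG, 1 and 3 with anti-IL-6R) and from 0.108 to 0 CPM in shMCT-1 (1 and 4 counts with IgG, 0 and 0 with anti-IL-6R). The difference was not tested, and it rests on 9 counts in 8 libraries.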

How the results depend on the processing

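The calls of Krt7, Krt14, Krt18 and Krt19 in both knockdown comparisons, and that of Krt8 within IgG, held in every alternative that could test them. Under the filter in at least 7 libraries, Krt17 and Krt19 could not be tested. With no filter and with filterByExpr, 7 of the 10 genes were called within IgG, the seventh being Trp63, beside 7600 and 7327 of all genes. Depth limits Krt17, Trp63 and Elf5, and with 2 libraries a group, leaving one out assumes that the remaining library varies like the other groups. With 1 library left out, the log2 fold change of Krt17 ran from 1.26 to 1.38 within IgG and from 0.72 to 1.68 within anti-IL-6R. That of Krt8 within anti-IL-6R ran from 0.26 to 0.45. Within anti-IL-6R, Krt17 lost its call with no filter (adjusted p = 0.0584), filterByExpr (0.0562), only the 4 libraries compared (0.0893) and DESeq2 (0.124). The causes of these changes were not tested.

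The number of all genes called changed most where the main count was 0. Upon anti-IL-6R in scramble it was 64 with no filter, 4 by the edgeR exact test and 0 to 14 with 1 library left out, the highest without scramble + IgG replicate 1. In shMCT-1 it was 133 with no filter, 8 by the exact test, 11 by DESeq2 and 0 to 1 with 1 library left out. For the interaction it was 97 with no filter, 6 by DESeq2 and 0 to 8 with 1 library left out. For the knockdown under anti-IL-6R it was 4418 to 7324, the lowest without scramble + anti-IL-6R replicate 2. None of the 10 genes was called upon anti-IL-6R in any of these fits.

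The sign turned for log2 fold changes near 0 and, upon anti-IL-6R, for the scarce Krt17 in scramble and the scarce Krt19 in shMCT-1. With all libraries, the values of these were -0.33 and 0.35. Gata3 within IgG gave -0.017 with RLE size factors, -0.013 with the filter in 7 libraries, -0.0081 with only the 4 libraries compared and -0.017 with DESeq2, and -0.076 to 0.082 with 1 library left out. Gata3 within anti-IL-6R gave -0.0028 to 0.14 on leaving out libraries. Upon anti-IL-6R in scramble, Krt14 gave 0.022 with no filter and 0.0016 with the filter in 7 libraries, and Krt7 gave -0.0063 with only the 4 libraries compared. Leaving out libraries there gave -0.035 to 0.049 for Krt7, -0.0043 to 0.068 for Krt8, -0.012 to 0.0066 for Krt14, -0.85 to 0.044 for Krt17, -0.0016 to 0.11 for Krt18, -0.20 to 0.039 for Krt19 and -0.10 to 0.058 for Gata3. Upon anti-IL-6R in shMCT-1, Krt7 gave 0.0075 with RLE, 0.015 with no filter, 0.00076 with only the 4 libraries compared and 0.0074 with DESeq2. Leaving out libraries there gave -0.070 to 0.077 for Krt7, -0.072 to 0.12 for Krt8, -0.036 to 0.11 for Krt18, -0.076 to 0.69 for Krt19 and -0.028 to 0.11 for Gata3.

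The replicate numbers did not pair the samples, since correlations of their deviations between groups ran from -0.108 to 0.112. With the replicate block, Krt17 lost its call within anti-IL-6R (log2 fold change 1.16, edgeR adjusted p = 0.0502), and the block changed no other call among the 10.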

Other observations

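Some genes near the 10 differed strongly between the lines. Scn8a, a sodium channel gene within 500 kb of Krt7, had 2 counts over the 4 scramble libraries and 383 over the 4 shMCT-1 libraries (3.71 to 4.82 CPM per shMCT-1 library), while the 7 other tested neighbours of Krt7 had log2 fold changes between -0.12 and 0.61 within IgG. Ehf, which lies within 500 kb of Elf5, had 47 counts over scramble and 524 over shMCT-1, whereas Elf5 had 4 and 5. Scn8a and Ehf passed the filter only through shMCT-1. Around the pair Krt8 and Krt18, the 22 tested neighbours of Krt18 outside the 10 genes had a median log2 fold change of -0.01 within IgG, with 7 higher and 4 lower.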
